A study of Mus musculus with 6 samples.

Results

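The genes that encode the chains of the collagens were examined in 6 stromal populations sorted from the mouse omentum. They were chosen by name, as every gene symbol of the form Col, a number, a and a number, and 44 of 23352 gene symbols met this rule. They comprised 11 fibrillar chains, 6 basement membrane chains, 6 chains of the beaded filament group, 9 fibril-associated chains (FACIT), 3 short-chain network formers, 4 transmembrane collagens, 2 multiplexins, 1 anchoring fibril chain and 2 others. All cells came from wild-type C57BL/6 mice, and RNA-seq was performed on 1 library per population, so that no p-value could be given and no value had a replicate error. P1 was sorted as CD45-, CD140a+ (PDGFRA), CD105+ (endoglin) and high in aldehyde dehydrogenase (ALDH) activity, the activity that makes retinoic acid. P2 and P3 carried the same surface markers with intermediate and with low ALDH activity. P4 and P5 were CD45-CD140a+ but CD105-, with intermediate and with low ALDH activity, and P6 was CD45-, low in CD140a and positive for ALDH activity. Each population is a sort gate, not a clone or a line, and the number of mice behind a library is not given in the sources used here.

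Collagens are trimers of chains wound in a triple helix. Fibrillar collagens form the cables that carry tension, type IV collagen forms the sheet-like network of basement membranes, type VI collagen forms beaded microfilaments near cells, and FACIT collagens sit on the surface of fibrils. Fibroblastic reticular cells of lymphoid organs ensheath collagen fibers with basement membrane components, and the milky spots of the omentum are lymphoid clusters that such cells organize.

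Expression was given as FPKM (read fragments counted per unit of exon length and of sequencing depth), a scale on which genes of different length can be compared. Estimated depth was 36.9 M reads for P6 and 53.2 to 61.5 M for the others, and intervals given with ratios were computed from the reads so estimated and cover counting error only. The CD140a gene Pdgfra had 152, 154, 153, 119, 117 and 5.36 FPKM in P1 to P6, and Dcn, a fibroblast proteoglycan, lay between 4350.0 and 5871 FPKM. All 7 genes of a fibroblast list reached 1 FPKM in every population. The fibroblast matrix genes Dpt and Lum were lower at each step from P1 to P6. Dpt had 1634, 1389, 986, 649.6, 264 and 8.70 FPKM, and Lum had 345, 287, 229, 143, 56.4 and 6.19. Pdpn (podoplanin) was instead highest in P6, at 125 FPKM against 78.8 in P3 to 120.0 in P4. A list of 8 mesothelial markers summed to 72.7 to 147 FPKM in P1 to P3, against 919 and 743 for P4 and P5 and 2898 for P6, and all 8 of them reached 1 FPKM in P4 and P6. Upk3b, a defining mesothelial gene, had 11.1, 6.78, 22.7, 383, 289 and 1139.8 FPKM in P1 to P6. Of 6 adipocyte genes, 5 reached 1 FPKM in P6 and 1 or 2 in the others, and the defining genes Cfd and Adipoq had 114 and 14.7 FPKM in P6 and less than 1 elsewhere. Fabp4, the most abundant gene of this list, went another way, with 172, 141, 236, 218, 349 and 179 FPKM in P1 to P6. The sum of the list was therefore highest in P5 (349.8 FPKM, against 326 in P6). The endothelial list summed to 1.75 to 18.8 FPKM in P1 to P5 and 112 in P6, where 2 of its 8 genes, Kdr and Esam, held nearly all of it, and the defining genes Pecam1 and Cdh5 were below 1 FPKM in all populations. In sorted bulk samples, fewer cells of a type and less RNA per cell cannot be told apart. The 5 leukocyte genes summed to 9.63 FPKM in P5 and up to 40.2 in P6. Lyz2, a myeloid gene, held most of this, at 7.74 to 26.6 FPKM, Csf1r had 11.6 in P6 and Cd79a up to 3.21 in P2, whereas Ptprc (CD45) was below 1 FPKM in all populations. Of 5 Schwann cell genes 1 reached 1 FPKM, Mbp with 1.79, 1.41, 4.74, 20.0, 21.4 and 44.7 FPKM in P1 to P6, and the defining gene Sox10 was listed at 0 throughout. Mbp was thus higher in the populations outside the CD105+ gates.

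Of the collagens, the 6 type IV chains are encoded in 3 head-to-head pairs, each pair read in opposite directions from a shared region. Their starts are shown because chains of one pair kept a nearly fixed ratio across the populations and chains of another did not. The annotated starts of Col4a1 (minus strand) and Col4a2 (plus strand) on chromosome 8 overlap, with Col4a2 starting at base 11312805 and Col4a1 at base 11312826, so that they share 22 exonic bases. Those of Col4a4 (minus strand) and Col4a3 (plus strand) on chromosome 1 are 72 bases apart, and those of Col4a6 (minus strand) and Col4a5 (plus strand) on chromosome X are 1309 bases apart. The sequences are from RefSeq on GRCm38.p6, 5′ to 3′, and the starts are from GENCODE M21. The first runs across both starts of Col4a1 and Col4a2 (chr8:11312801-11312830, plus strand), and the others precede the first exons of Col4a6 (chrX:141474077-141474326, minus strand) and Col4a5 (chrX:141475169-141475384, plus strand). Capitals mark the motif CCAAT or the motif GGGCGG (known as a GC box), read on either strand. The motif TATAAA (known as a TATA box) was also searched and is not in these letters.
Col4a1-Col4a2: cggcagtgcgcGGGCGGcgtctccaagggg
Col4a6: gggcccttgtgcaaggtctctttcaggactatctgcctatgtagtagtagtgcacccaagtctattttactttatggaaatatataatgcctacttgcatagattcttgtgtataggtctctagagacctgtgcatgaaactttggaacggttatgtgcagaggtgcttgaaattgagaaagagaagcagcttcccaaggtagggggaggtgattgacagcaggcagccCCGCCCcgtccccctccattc
Col4a5: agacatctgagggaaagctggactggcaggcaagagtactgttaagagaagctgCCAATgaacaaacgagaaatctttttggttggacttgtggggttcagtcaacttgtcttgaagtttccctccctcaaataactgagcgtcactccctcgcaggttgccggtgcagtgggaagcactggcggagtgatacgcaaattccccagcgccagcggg
The short Col4a1-Col4a2 stretch was 80.0% G and C and held a GC box. The printed region of Col4a6 was 47.6% G and C, with a GC box on its other strand, and that of Col4a5 was 52.3% with a CCAAT box. These stretches differ in length and position. In like windows of 250 bases, G and C made up 74.4% for Col4a1, 73.6% for Col4a2, 54% for Col4a5 and 47.6% for Col4a6. There, GGGCGG was present for Col4a2, Col4a5 and Col4a6 but not Col4a1, and CCAAT for Col4a1, Col4a2 and Col4a5 but not Col4a6. The Col4a5 window (chrX:141475169-141475418) runs past the start at base 141475385, and its GGGCGG is not in the printed letters before that start. Among such windows of 250 bases, GGGCGG was present in 22 of 38 promoter windows of the collagen genes (57.9%, for 35 of the 44 genes) and in 32.7% of all 32851 windows. CCAAT was present in 34.2% and 33.8%, and TATAAA in 13.2% and 12.4%, respectively. The median G and C content was 59.0% for collagen windows and 52.4% for all windows.

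A level of 1 FPKM in at least 1 population was reached by 30 of the 44 collagen genes. Of the 30, 23 reached 1 FPKM in every population with a value, and 15 reached 100 FPKM in at least 1. Together the collagen genes took up 2.42% of all FPKM in P1, whereas the shares of P3 to P6 were 1.89%, 1.78%, 1.42% and 1.91%, respectively. P2 has no such sum because Col3a1 is listed at 0 there, a value treated as a failed estimate and not as absence, since the other 5 libraries all had at least 2100.2 FPKM. With Col3a1 left out of every population, the collagen share was highest in P2 and not in P1. It was 1.59%, 1.74%, 1.33%, 1.13%, 0.893% and 1.15% of all FPKM from P1 to P6. Again without Col3a1, the fibrillar chains held 49.0% to 53.7% of collagen FPKM in P1 to P5 and 69.7% in P6. The share of basement membrane chains was 17.2%, 13.4%, 15.2%, 13.4%, 8.41% and 2.85% from P1 to P6. The beaded filament share ran from 18.7% in P6 to 24.7% in P5. P1 thus had the highest basement membrane share and P6 the lowest.

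**Figure D1:**
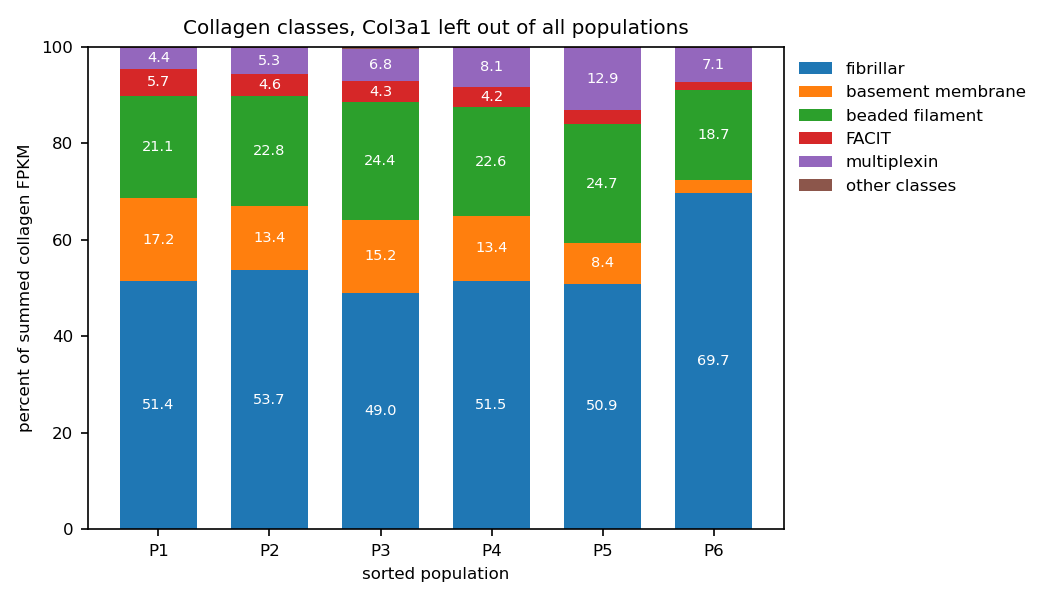
Stacked bars give the percent of summed collagen FPKM held by each collagen class (vertical axis) in each sorted population (horizontal axis, 1 library each), with Col3a1 left out of all 6. Basement membrane chains run from 17.2% in P1 to 2.85% in P6, and fibrillar chains are highest in P6 at 69.7%.

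The type I and III collagens were expressed at levels among the highest of any gene, Col1a1 ranking between 11 and 64 of all genes and Col1a2 between 16 and 40. Col1a1, one of the chains of type I collagen, had 1263, 1618, 996, 898, 670.3 and 1735 FPKM in P1 to P6. Its partner chain Col1a2 had 1419.6, 1593, 1128, 1064, 871 and 1153 FPKM in P1 to P6. Both were lowest in P5, and Col1a1 but not Col1a2 was highest in P6. Col3a1, the chain of type III collagen, which is abundant in reticular fibers, had 3389.6, 2202, 2647, 2100.2 and 2926 FPKM in P1 and P3 to P6, respectively, and ranked between 3 and 9 among all genes in these 5 populations. Its highest value in these 5 populations was 1.61 times the lowest. This was the narrowest span of the 29 collagen genes for which one could be given (median 3.66). The spans of the other genes also included P2, where Col1a2 had its highest value, so this rank compares unlike sets of populations.

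The type V chains, which help to set the diameter of fibrils, had their extremes in the same populations. Col5a1 had 299, 251, 191, 178, 103 and 89.4 FPKM in P1 to P6. Col5a2 had 205, 179.8, 148, 156, 117 and 88.9 FPKM in P1 to P6. Col5a3 had 132, 66.8, 62.7, 70.2, 26.4 and 16.3 FPKM in P1 to P6. All were highest in P1 and lowest in P6, and the range was widest for Col5a3, which was 1.97 times (95% counting interval 1.94 to 2.0) as high in P1 as in P2. The minor fibrillar chains were much lower. Col27a1, a cartilage-associated chain, had 5.50, 8.34, 10.1, 4.72, 7.22 and 3.36 FPKM in P1 to P6. Col24a1 had 0.0701, 0.0793, 0.339, 1.18, 1.28 and 0.284 FPKM in P1 to P6, and so exceeded 1 FPKM in the CD105- populations only. Col2a1 and Col11a1, typical of cartilage, reached at most 0.0137 and 0.0297 FPKM, and Col11a2 reached 0.880 in P6.

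**Figure D2:**
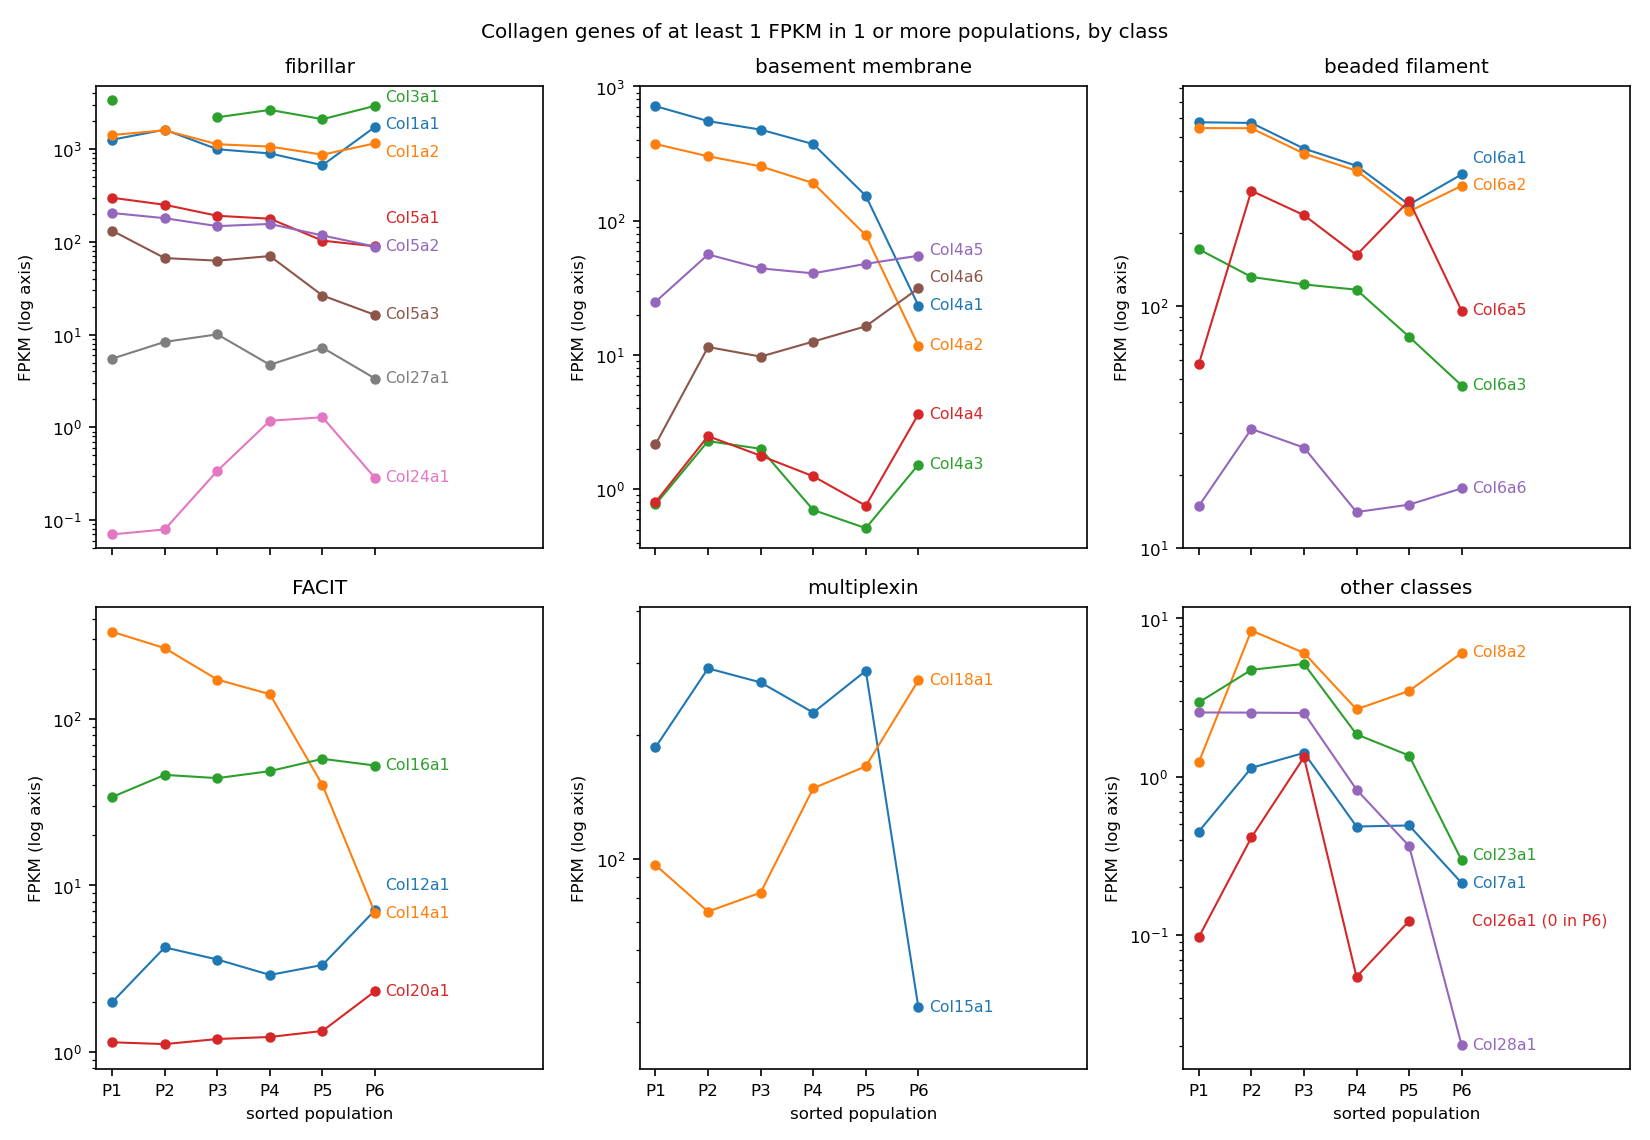
FPKM on log axes (each panel with its own range) of the 30 collagen genes that reached 1 FPKM, by class, in the 6 sorted populations; a point is 1 library and lines only join the points of a gene. Col3a1 has no value in P2 and Col26a1 is listed at 0 in P6. Col4a1, Col4a2 and Col14a1 are highest in P1 and lowest in P6, whereas Col4a6, Col12a1 and Col18a1 are highest in P6.

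The 6 type IV chains differed in their order across populations. Col4a1 and Col4a2 form the network found in nearly all basement membranes. Col4a1 had 714, 552, 477, 372, 153 and 23.3 FPKM in P1 to P6. Col4a2 had 373, 302, 254, 191, 78.0 and 11.7 FPKM in P1 to P6. Each was lower at every step from P1 to P6, and the P1 value was 30.6 times that of P6 for Col4a1 and 31.7 times for Col4a2. Col4a5 and Col4a6, which pair in a network known from smooth muscle and some epithelia, were lowest in P1. Col4a5 had 24.9, 56.1, 44.2, 40.6, 47.7 and 54.9 FPKM in P1 to P6. Col4a6 had 2.16, 11.5, 9.73, 12.6, 16.4 and 31.3 FPKM in P1 to P6. P6 exceeded P1 in Col4a6 by 14.5 times (95% counting interval 13.5 to 15.7), and P2 exceeded P1 in Col4a5 by 2.25 times (95% counting interval 2.20 to 2.31). Col4a3 and Col4a4, which with Col4a5 make the network of the kidney filter, were near 1 FPKM. Col4a3 had 0.772, 2.29, 2.0, 0.702, 0.513 and 1.53 FPKM in P1 to P6. Col4a4 had 0.801, 2.49, 1.78, 1.25, 0.755 and 3.63 FPKM in P1 to P6.

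Among the beaded filament chains, Col6a1, Col6a2 and Col6a3 form the common type VI heterotrimer. Col6a1 had 577, 573, 449, 381, 263 and 351 FPKM in P1 to P6. Col6a2 had 546, 545, 428, 363, 247 and 315 FPKM in P1 to P6. Col6a3 had 172, 132, 123, 117, 74.7 and 47.0 FPKM in P1 to P6. All were highest in P1, although P1 over P2 was only 1.01 times (0.999 to 1.01) for Col6a1 and 1.0 times (0.994 to 1.01) for Col6a2, within counting error of equal. Col6a5 and Col6a6 are alternative chains that can take the place of Col6a3. Col6a5 had 57.6, 300.2, 238, 163, 273 and 95.6 FPKM in P1 to P6. Col6a6 had 14.9, 31.0, 26.0, 14.1, 15.1 and 17.6 FPKM in P1 to P6. Both were highest in P2, and Col6a5 was lowest in P1, which P2 exceeded by 5.21 times (95% counting interval 5.15 to 5.28). Col6a4, the remaining alternative chain, stayed below 1 FPKM and peaked at 0.952 in P6. These alternative chains lie side by side on chromosome 9, with 27918 bases between Col6a6 and Col6a5 and 28811 between Col6a5 and Col6a4.

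Of the FACIT collagens, Col14a1 encodes undulin, a fibril-bound collagen that interacts with decorin, and had 334, 266, 172, 141, 40.1 and 6.83 FPKM in P1 to P6. It had the same order of populations as Col4a1, and P1 exceeded P6 by 48.9 times (95% counting interval 46.5 to 51.4). Col12a1, its closest relative, had 1.99, 4.25, 3.59, 2.90, 3.33 and 7.11 FPKM in P1 to P6. The order was thus opposite at the ends, with the lowest value in P1 and the highest in P6. Col16a1 had 34.0, 46.1, 44.1, 48.6, 57.6 and 52.5 FPKM in P1 to P6. Col20a1 had 1.14, 1.12, 1.20, 1.23, 1.34 and 2.32 FPKM in P1 to P6. Col16a1 differed by 1.69 times between its extremes, and Col20a1 exceeded 2 FPKM in P6 only. The cartilage chains Col9a1, Col9a2 and Col9a3 and the chains Col19a1 and Col22a1 did not reach 1 FPKM, and the highest of these values was 0.695 for Col9a3 in P6.

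Both multiplexins, basement membrane-associated collagens whose last domains can be released as endostatin (Col18a1) and restin (Col15a1), were abundant but differed in order. Col15a1 had 187, 290.5, 268, 227, 287 and 43.4 FPKM in P1 to P6. Col18a1 had 96.5, 74.3, 82.6, 148, 168 and 272 FPKM in P1 to P6. Col15a1 was thus lowest in P6 and Col18a1 highest there, and their ratio ran from 3.91 in P2 to 0.160 in P6. The network former Col8a2, known from the basement membrane of the cornea, had 1.24, 8.39, 6.06, 2.67, 3.49 and 6.05 FPKM in P1 to P6. Its partner chain Col8a1 reached 0.867 FPKM in P2, below 1. Col8a2 was lowest in P1, which P2 exceeded by 6.79 times (95% counting interval 5.98 to 7.73).

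The remaining collagens were low. The transmembrane collagen Col23a1 had 2.95, 4.74, 5.17, 1.85, 1.36 and 0.297 FPKM in P1 to P6. Col7a1, which makes the anchoring fibrils of epithelia, had 0.451, 1.14, 1.42, 0.485, 0.492 and 0.213 FPKM in P1 to P6. Both were highest in P3 and lowest in P6. Col28a1 had 2.55, 2.54, 2.53, 0.829, 0.365 and 0.0201 FPKM in P1 to P6, so that the values of P1 to P3 did not differ beyond counting error (P1 over P3 1.01, 95% counting interval 0.897 to 1.13). In P6 it rested on about 3 reads, and P1 exceeded it by 127 times (95% counting interval 43.0 to 614). Col26a1 had 0.0971, 0.414, 1.33, 0.0545 and 0.123 FPKM in P1 to P5, respectively, and is listed at 0 in P6. Among the 14 collagen genes below 1 FPKM throughout, the highest value of each gene ranged from 0.00318 to 0.952 FPKM, and 8 of them were listed at 0 in 1 or more populations.

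Of the 30 genes that reached 1 FPKM, the highest value was in P1 for 11, in P2 for 7, in P6 for 6, in P3 for 4, in P5 for 2 and in P4 for 0. The lowest value was in P6 for 13, in P1 for 7 and in P5 for 7. P1 thus held the maximum of Col3a1, the 3 type V chains, Col4a1, Col4a2, the 3 main type VI chains, Col14a1 and Col28a1. Col3a1, which has no value in P2, was ranked over P1 and P3 to P6 only. P1 held the minimum of Col4a5, Col4a6, Col6a5, Col8a2, Col12a1, Col16a1 and Col24a1. Col4a1, Col4a2, Col5a1, Col6a3 and Col14a1 were lower at each step from P1 to P6, an order chosen after the values were seen, and for these 5 genes each step was beyond counting error. The values of Col28a1 had the same order, but only 3 of its 5 steps were beyond counting error. Counted by their values alone, without regard to counting error, the 6 genes were 20.7% of the 29 with values in all populations, against 3.31% of all genes counted in the same way. The order was not particular to collagens, since Dpt and Lum of the fibroblast list had it too, whereas the other genes of that list did not.

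Comparison of the populations asked which collagens differ with ALDH activity, with CD105 and in the CD140a-low gate. A gene was called different when the higher value was at least 2 times the lower and at least 1 FPKM. In P1 against P2, the CD105+ cells with high and intermediate ALDH activity, 9 of 27 collagen genes (33.3%) were lower in P1, against 4.48% of all genes. These were the minor type IV chains Col4a3, Col4a4, Col4a5 and Col4a6, the alternative type VI chains Col6a5 and Col6a6, and Col7a1, Col8a2 and Col12a1. The fold was 6.79 for Col8a2, 5.32 for Col4a6, 5.21 for Col6a5, 3.11 for Col4a4 and 2.96 for Col4a3, and between 2.08 and 2.52 for the other 4. Col4a3, Col4a4, Col7a1 and Col8a2 had at most 1.24 FPKM in P1. A list of 7 mural and smooth muscle markers was also lower in P1, summing to 62.9 FPKM against 143 in P2 and 245 in P3, mostly Des and Myh11, with Rgs5 and Cspg4 below 1 in all 3, and its part in these differences was not tested. With 1 FPKM added to each value, 5 genes were past 2 times (2.76% of all genes), and with no minimum 18 of 43 were (14.7% of all genes). Col6a6 was no longer past 2 times under median-of-ratios scaling, which left 8 genes. None of 27 was higher in P1 than in P2 (1% of all genes), Col5a3 being nearest at 1.97 times. Neither did any of the 30 meet the criterion of being 2 times higher in P1 than in every other population, which 0.419% of all genes met.

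P2 and P3 were the CD105+ cells with intermediate and low ALDH activity. No collagen gene of 28 was at least 2 times higher in P2 (1.14% of all genes), and 1 was higher in P3 (2.71% of all genes), Col26a1 at 3.21 times (2.41 to 4.28). These counts were near the share of all genes. By a smaller amount, 22 of 29 genes were higher in P2 than in P3, with a median log2 ratio of 0.24, against -0.03 over all genes and 43.1% of all genes higher in P2. Col1a1 was 1.63 times (1.62 to 1.63) and Col14a1 1.54 times (1.53 to 1.56) as high in P2. The comparisons of P1 with P2, of P2 with P3 and of P2 with P4 share the P2 library. Those of P4 with P5 and of P3 with P5 share P5, those of P4 with P5 and of P2 with P4 share P4, and those of P2 with P3 and of P3 with P5 share P3.

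Among CD105- cells, 4 of 26 collagen genes were higher in P4, with intermediate ALDH activity, than in P5, with low activity (15.4%, against 4.14% of all genes). They were Col14a1, 3.51 times (95% counting interval 3.45 to 3.57), Col5a3, 2.66 times (2.60 to 2.73), Col4a2, 2.45 times (2.41 to 2.48), and Col4a1, 2.43 times (2.40 to 2.45). No gene of 26 was lower in P4 by this rule (1.54% of all genes), and Col6a5 was nearest among the abundant ones, at 1.68 times higher in P5. The mesothelial list summed to 919 FPKM in P4 and 743 in P5, and the mural list to 183 in P4 and 294 in P5, mostly Des (117 and 191 FPKM) and Myh11 (56.6 and 91.8). Of the fibroblast list, Dpt (649.6 against 264 FPKM) and Lum (143 against 56.4) were also higher in P4 than in P5. Its other genes were close in the 2 populations, and Ccl19 was lower in P4 (39.8 against 46.0). The part of any of these lists in the differences was not tested.

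For CD105, P2 was compared with P4 and P3 with P5, at matched ALDH activity. At least 2-fold higher levels with CD105 at both activities were found for 4 of 29 collagen genes (13.8%), against 3.7% of all genes. Col28a1 was 3.06 times (2.60 to 3.61) and 6.92 times (5.52 to 8.69) as high with CD105, Col4a3 3.26 times (2.89 to 3.68) and 3.90 times (3.40 to 4.48), Col23a1 2.56 times (2.32 to 2.81) and 3.80 times (3.42 to 4.22), and Col7a1 2.35 times (2.02 to 2.72) and 2.88 times (2.50 to 3.31), with the 95% counting intervals in parentheses. All were low-level genes, with at most 5.17 FPKM. Of the chains that reached 100 FPKM, Col4a1, Col4a2, Col5a3 and Col14a1 were past 2 times for P3 over P5 but not for P2 over P4. The same genes were called higher in P4 than in P5, and both comparisons rest on the P5 library, so they are not separate results. Col4a1 was 1.48 times as high in P2 as in P4 and 3.11 times as high in P3 as in P5. For the same pairs the ratios were 1.58 and 3.26 for Col4a2, 0.952 and 2.37 for Col5a3, and 1.89 and 4.30 for Col14a1. Col24a1 was the 1 gene lower with CD105 at both levels (5.41% of all genes), by 14.8 and 3.79 times, and Col18a1 lay at the limit, at 2.0 and 2.03 times. The median log2 ratio over collagen genes was 0.58 for P2 over P4 and 0.74 for P3 over P5, against -0.08 and -0.09 over all genes. Division by Gapdh, itself 214 to 224 FPKM in the CD105+ and 302 to 326 in the CD105- populations, brought the count of genes higher with CD105 to 14 (8.44% of all genes) and moved the median log2 ratio of all genes by 0.47 and 0.54, and adding 1 FPKM left 1 gene (2.11% of all genes). Mesothelial markers were higher in both CD105- populations (919 and 743 FPKM in sum, against 95.2 in P2 and 147 in P3), as was the Schwann cell gene Mbp. The mural list also had higher sums there (183 and 294 FPKM, against 143 and 245), but only through Myh11 and Acta2. Myh11 had 56.6 and 91.8 FPKM in P4 and P5, against 6.31 and 35.1 in P2 and P3. Des, the largest gene of that list, was higher with CD105 in both pairs, as were Notch3, Rgs5, Cspg4 and Mcam. The part of these markers in the differences was not tested.

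In P6, 5 of 30 collagen genes (16.7%) were at least 2 times lower than in each of P1 to P5, against 3.42% of all genes. Relative to the lowest of P1 to P5, P6 was lower 6.64 times (95% counting interval 6.38 to 6.91) for Col4a2, 6.57 times (6.39 to 6.75) for Col4a1, 5.87 times (5.57 to 6.18) for Col14a1, 4.59 times (3.48 to 6.08) for Col23a1 and 4.30 times (4.20 to 4.40) for Col15a1. None of 30 was at least 2 times higher in P6 than in each other population, against 6.45% of all genes. The nearest were Col4a6, 1.91 times (1.85 to 1.98) the highest of P1 to P5, Col20a1, 1.73 times, Col12a1, 1.67 times (1.59 to 1.76), and Col18a1, 1.62 times (1.60 to 1.64). Of the 30 genes, 19 were below and 11 above the mean of P1 to P5, with a median log2 ratio of -0.64, against 0.08 over all genes. With no minimum, over all 44 collagen genes, the median was -0.13. P6 was also the library with the highest mesothelial sum (2898 FPKM), the lowest Pdgfra and the lowest depth, and the part of these in its collagen values was not tested.

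**Figure D3:**
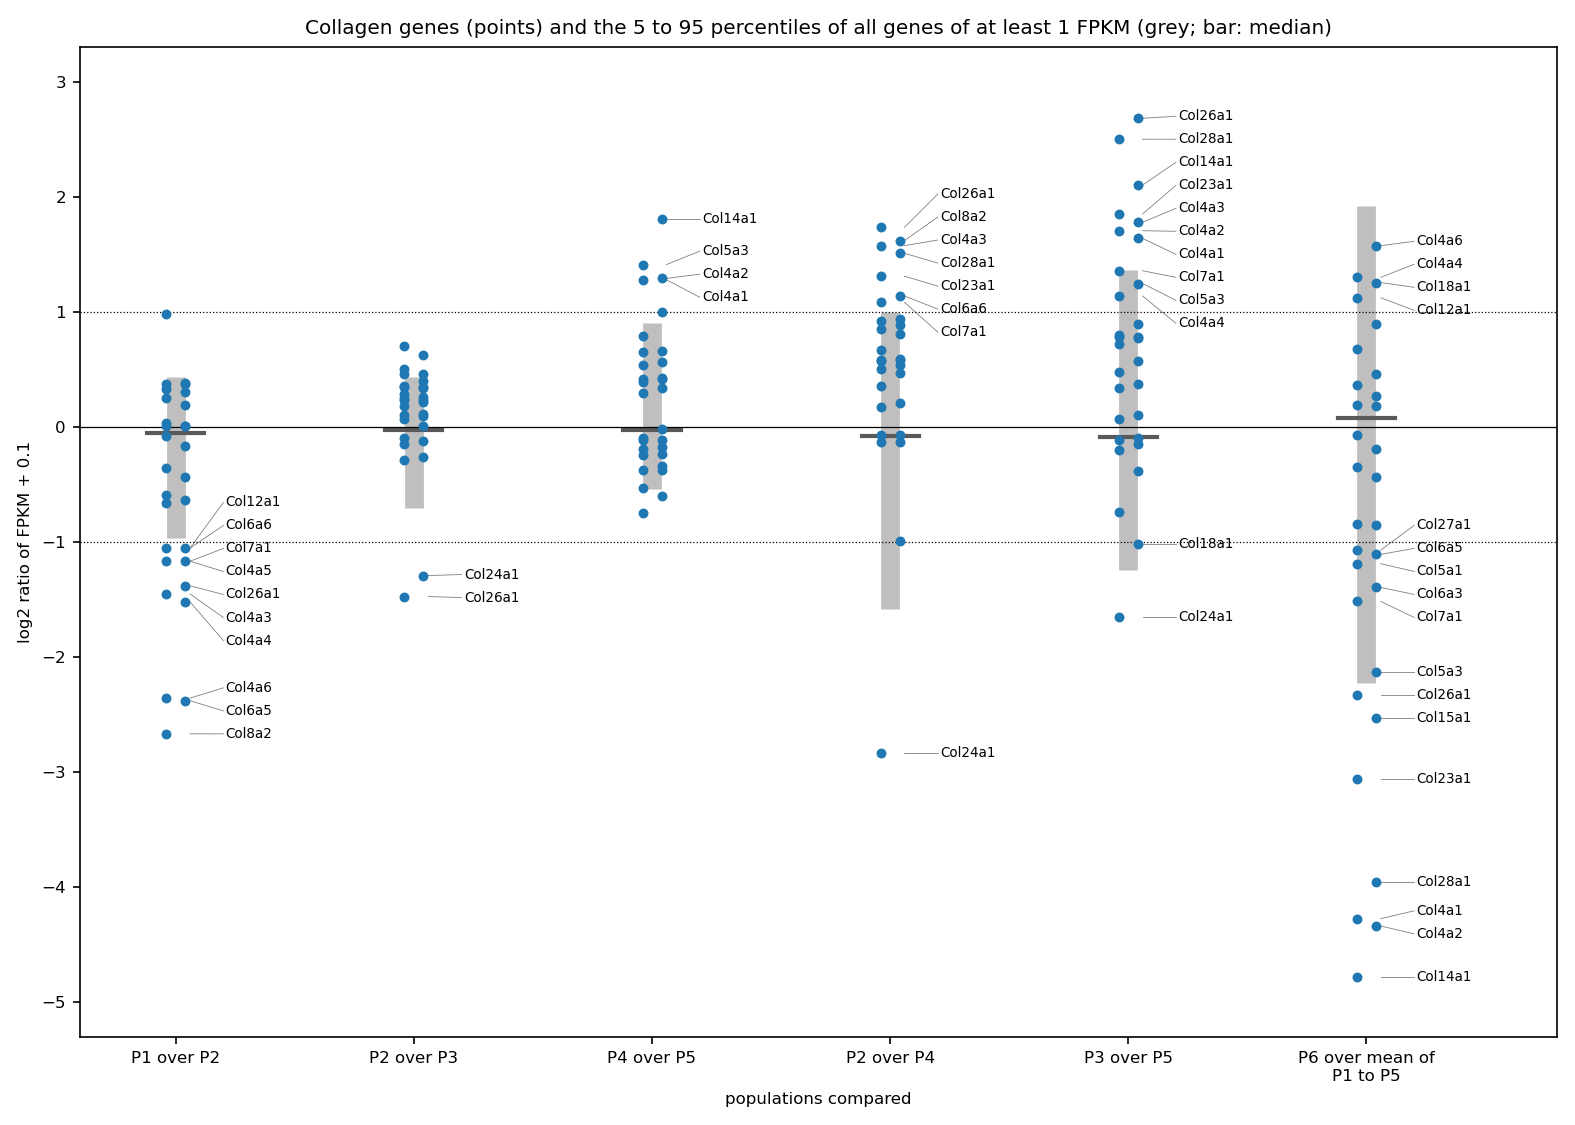
Log2 ratio of FPKM + 0.1 (vertical axis) for the collagen genes of at least 1 FPKM (points) in each comparison of populations (horizontal axis), with the 5 to 95 percentiles of all genes of at least 1 FPKM in grey and their median as a bar; dotted lines mark a ratio of 2 in either direction, and genes beyond them are named. The named points lie mostly below 0 for P1 over P2 and for P6 over the mean of P1 to P5, and mostly above 0 for P2 over P4 and P3 over P5.

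The ratio of 2 chains within a library does not depend on scaling between libraries. Col4a1 over Col4a2 was 1.91, 1.83, 1.88, 1.95, 1.97 and 1.99 from P1 to P6. This ratio spanned 1.09 times, although each gene spanned more than 30 times. This span was set beside those of 687 divergent pairs of protein-coding genes, both with a mean of at least 1 FPKM. Their starts lie at most 2000 bases apart or overlap by at most 500. Of these pairs, 1 (0.146%) had a smaller span, and the median pair spanned 1.58 times. The pairs were not matched for level, and counting error widens the span of pairs with few reads. Because the kit does not mark strand, reads of the 22 bases that the genes share cannot be assigned to either.

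Col4a5 over Col4a6 was 11.5, 4.89, 4.54, 3.22, 2.92 and 1.75 from P1 to P6, lower at every step. The span of 6.59 times exceeded that of 98% of divergent pairs. Col4a4 over Col4a3 spanned 2.68 times, from 0.888 in P3 to 2.38 in P6, above 91.7% of pairs, at values of a few FPKM that carry more counting error. The common network chain Col4a1 exceeded Col4a5 28.7 times in P1, whereas in P6 it was 0.425 times Col4a5.

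Col6a1 over Col6a2, chains of one heterotrimer encoded 85162 bases apart on chromosome 10, was 1.06, 1.05, 1.05, 1.05, 1.07 and 1.12 from P1 to P6. The alternative chain Col6a5 over Col6a1 was 0.0998, 0.524, 0.530, 0.427, 1.04 and 0.272 from P1 to P6. The first ratio thus spanned 1.06 times and the second 10.4 times, with P1 at its low end and P5 at its high end. Type I procollagen is mostly built of 2 Col1a1 chains and 1 Col1a2 chain. Col1a1 over Col1a2 was 0.890, 1.02, 0.883, 0.843, 0.770 and 1.5 from P1 to P6, so P6 stood above the others. Col5a1 over Col5a2 ran from 0.879 in P5 to 1.46 in P1, and Col14a1 over its relative Col12a1 from 0.961 in P6 to 167 in P1.

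**Figure D4:**
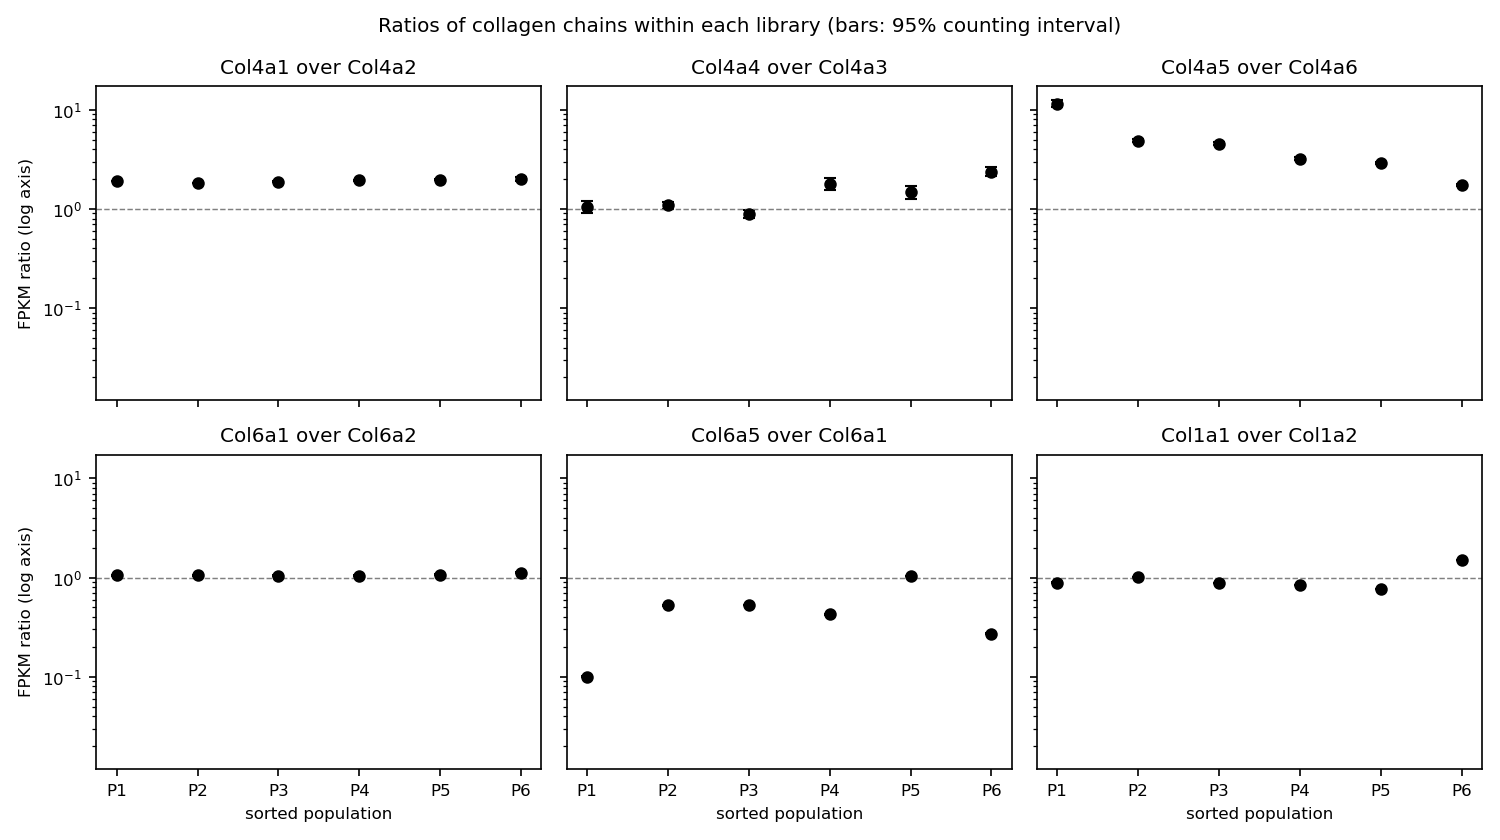
FPKM ratio of chain pairs (vertical log axis, the same in all panels) within each of the 6 sorted populations (horizontal axis); points are 1 library each, bars are 95% counting intervals and the dashed line marks equal FPKM. Col4a1 over Col4a2 and Col6a1 over Col6a2 stay nearly level (1.83 to 1.99 and 1.05 to 1.12), whereas Col4a5 over Col4a6 runs from 11.5 in P1 to 1.75 in P6 and Col6a5 over Col6a1 is lowest in P1 at 0.0998.

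The enzymes that modify and cleave procollagen were measured for 25 genes, 22 of them at 1 FPKM or more. Serpinh1, the collagen chaperone, had 739, 671, 620.4, 619, 553 and 588 FPKM in P1 to P6. P4hb, the shared subunit of prolyl 4-hydroxylases, lay between 281 and 361 FPKM. These core genes thus varied less than 1.5 times. Pcolce2, an enhancer of C-propeptide cleavage, had 252, 138, 75.4, 102, 19.9 and 1.69 FPKM in P1 to P6. Adamts2, the main N-propeptidase of fibrillar collagens, had 340.4, 264, 170.3, 155, 60.0 and 70.4 FPKM in P1 to P6. Of the 22 genes, Pcolce2 and Adamts14 (9.09%, against 3.42% of all genes) were lower in P6 than in each other population, and Adamts3 and Tll1 (9.09%, against 6.45%) higher in P6. Pcolce2 and Adamts2 were higher in P4 than P5 (9.52% of 21 genes, against 4.14%). Each of these counts rests on 2 genes. Leprel1 (P3h2), a prolyl 3-hydroxylase that acts on basement membrane collagen, had 0.210, 7.66, 9.19, 0.675, 4.09 and 0.172 FPKM in P1 to P6. It was thus lower in P1 than P2, lower in P4 than P5 and higher with CD105 at both ALDH levels, the 1 gene of 21 (4.76%) in each case, against 4.48%, 1.54% and 3.7% of all genes. Adamts14 had 1.08 FPKM in P6 against 6.02 to 7.91 in the others, and Adamts3 and Tll1 had 6.02 and 4.85 in P6 against at most 2.41 and 0.696. No processing gene was selective for P1.

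All 5 lysyl oxidases, the copper enzymes that cross-link collagen and elastin, were expressed. Lox had 219, 274, 218, 109, 66.4 and 46.8 FPKM in P1 to P6. Loxl4 had 10.9, 11, 8.45, 4.97, 2.70 and 5.28 FPKM in P1 to P6. Both were at least 2 times higher with CD105 at both ALDH levels (2 of 5 genes, against 3.7% of all genes), whereas Loxl1, Loxl2 and Loxl3, highest in P1 at 344, 139 and 26.7 FPKM, passed no rule. Of 10 receptors that bind collagen, 8 reached 1 FPKM. The discoidin domain receptors had opposite orders at the ends. Ddr1, the form typical of epithelia, had 16.2, 28.6, 30.2, 41.6, 43.3 and 97.5 FPKM in P1 to P6. Ddr2, the form typical of fibroblasts, had 173, 129, 88.1, 99.6, 55.3 and 41.5 FPKM in P1 to P6. Ddr1 was at least 2 times higher in P6 than in each other population, as 1 of 8 receptors (12.5%, against 6.45% of all genes). Itga11, an integrin chain for fibrillar collagen, had 20.6, 11.5, 8.35, 9.88, 2.92 and 0.639 FPKM in P1 to P6, and was higher in P4 than P5 and lower in P6 than in each other population. Itga2, a further collagen-binding integrin chain, and Mrc2 (Endo180), which takes up collagen, were likewise lower in P6, at 0.269 and 13.9 FPKM against at least 1.51 and 44.1, which made 3 of 8 receptors (37.5%, against 3.42% of all genes). Itga1 was lower in P1 (1.41 FPKM) than in P2 (2.96), and Itga10 was lower with CD105, at 0.521 against 1.74 FPKM for P2 and P4, and 0.816 against 1.83 for P3 and P5. These calls, and that of Itga11 for P4 over P5, were 1 gene each of 7 or 8 receptors, against 4.48%, 5.41% and 4.14% of all genes.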

How the data were processed

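RNA-seq values were taken for 6 sorted populations with 1 library each. Total RNA was extracted with a column kit and DNase, the NEBNext Ultra library kit used does not mark strand, and single-end reads of 76 nt were sequenced. The submitters' processing notes name TopHat2 2.0.7, Cufflinks 2.1.1 and the mm10 build. The annotation, filters and pooling of mice are not given in the sources used here. The authors deposited FPKM values per gene symbol for each library, and no counts.

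Values of repeated symbols were added up, giving 23352 symbols. An exact 0 beside a median of at least 10 FPKM in the other libraries was treated as missing, which removed 38 values of 23 genes. Whole reads could not be recovered in full. Only 54.4% to 60.2% of the values at or under 10 reads came out whole (tolerance 0.05), so depth was estimated from the steps of genes with a single transcript of at least 800 nt, with an assumed fragment length of 200 nt. Counting intervals are exact binomial intervals at 95% on the estimated reads.

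The collagen genes were chosen by name, and classes and lists were chosen with earlier results of these data known. With 1 library per population no test was possible, so fold rules (2 times, with 1 FPKM or more in the higher value) were counted for collagen genes and for all genes that reached 1 FPKM in a compared library. For log2 ratios 0.1 was added to both values, which understates the change of low genes. Every collagen gene of at least 1 FPKM was named, as were list genes that passed a rule. Genes nearest to a limit were named after their values were seen. The fold rules were tested on simulated data. Positions are from GENCODE M21 (GRCm38), which matched all 44 genes, and promoter sequences are from RefSeq GRCm38.p6. Exons shared with other genes covered at most 6.07% of a collagen gene's exonic bases. Alternatives were other pseudocounts, folds, minimums and scalings, the highest row per symbol, and zeros kept. Scripts ran in Python 3.11.15 (matplotlib 3.10.9, scipy 1.17.1, pandas 2.3.3 and numpy 2.4.6).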

Additional observations from a re-analysis of the deposited data

How the results depend on the processing

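The counts of collagen genes past a fold rule were compared in 88 combinations of a count and an alternative. They were within 1.5 times the reported count, or stayed at 0, in 61 and moved in 27. With no minimum FPKM, 9 genes were lower and 1 was higher in P6 (7.01% and 8.79% of all genes), 10 were higher with CD105 (7.34%), 18 were lower in P1 than P2 (14.7%), 2 were higher and 5 lower in P2 than P3 (7.03% and 10.9%), and 8 were lower in P4 than P5 (9.04%), so that the shares of all genes grew with the counts. At 1.5 times instead of 2, 4 genes were higher in P6 (11% of all genes), and 10 were higher and 2 lower with CD105 (7.22% and 9.62%). At this fold, 1 was higher in P1 than P2 (3.09% of all genes) and 1 was selective for P1 (1.61%). Further, 2 were higher in P2 than P3 (2.48%), and 7 were higher and 2 lower in P4 than P5 (7.41% and 4.12%). With 1 FPKM added, 1 gene was higher and 0 were lower with CD105 (2.11% and 3.99% of all genes), 5 were lower in P1 than P2 (2.76%) and 0 were lower in P2 than P3 (1.51%). Median-of-ratios scaling gave 1 gene higher in P1 than P2 (1.2% of all genes) and 1 selective for P1 (0.614%), in both cases Col5a3. Under it, Col6a6 was no longer lower in P1 than P2, which left 8 genes (4.16% of all genes). Division by Gapdh also gave Col5a3 as 1 gene higher in P1 than P2 and 1 selective for P1 (1.11% and 0.672% of all genes). It further gave 1 higher in P6, Col4a6 (6.63% of all genes), and 14 higher with CD105 (8.44%). The same division moved the median log2 ratio of all genes by 0.47 for P2 over P4 and 0.54 for P3 over P5. The shift was 0.11 for P4 over P5 and -0.11 for P6. With zeros kept, Col3a1 entered by construction, with 1 gene higher in P1 than P2 (1.05% of all genes) and 2 lower in P2 than P3 (2.75%). Adding 0.1 FPKM or taking the highest row per symbol moved no count by over 1.5 times. With no minimum, the median log2 ratio of collagen genes for P4 over P5 went from 0.31 to -0.06, for P2 over P3 from 0.24 to 0.10, for P3 over P5 from 0.74 to 0.42 and for P6 from -0.64 to -0.13. With 1 FPKM added, that for P6 was -0.39. Division by Gapdh gave 1.06 for P2 over P4 (0.58 as reported), 1.28 for P3 over P5 and 0.42 for P4 over P5. For low collagen genes depth limits precision, most of all in P6, the shallowest library. No paired analysis was possible because 1 library stood for each gate.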
